A study of Mus musculus with 6 samples.

Results

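The proteases that process Notch receptors were examined as a group of 7 genes, *Adam10*, *Adam17*, *Psen2*, *Ncstn*, *Aph1a*, *Psenen* and *Furin*, which were taken by symbol from the 18537 known-gene clusters of the expression table, where each has 1 row. The table comes from RNA-seq of luminal progenitor cells sorted as Lin-CD24loCD29+CD61+ from the mammary glands of adult nulliparous mice, and it was made to compare animals with and without the axon guidance receptor ROBO1. *Robo1+/+* (wild type, WT) mice gave 3 libraries, gh03, gh09 and gh15, and *Robo1−/−* (knockout, KO) mice gave 3, gh06, gh12 and gh18, with cells of 2 animals pooled in each. Values of single libraries are listed in that order throughout. The 2 genotypes were littermates from crosses of *Robo1+/−* parents, the KO animals were homozygous for the germline *Robo1* tm1Matl allele, so the loss was not limited to the sorted cells, and no drug treatment is described. By the study's methods, nulliparous females were 10 to 12 weeks old.

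Notch receptors reach the cell surface after a cut by the proprotein convertase furin. Ligand binding then lets a membrane metalloprotease, ADAM10 or in some settings ADAM17, remove the outer part of the receptor, and gamma-secretase cuts the remaining stub within the membrane and frees the intracellular domain, which enters the nucleus and activates target genes. Gamma-secretase is a complex of a presenilin such as PSEN2, which makes the cut, nicastrin (*Ncstn*), an APH1 protein and PEN2 (*Psenen*), and in the mammary gland Notch signaling acts in the choice and maintenance of luminal cell fates.

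Each value is the number of reads of a gene divided by a size factor of its library, as the authors deposited it, and is called a normalized value here. Turned back into whole reads, the WT libraries held 10494297, 17433868 and 14298652 reads and the KO libraries 12183461, 15185303 and 9727191. *Robo1*, the targeted gene (chromosome 16, 72663394 to 73046340, NCBI37/mm9), had normalized values of 289, 574 and 541 in WT against 130.1, 214 and 177 in KO. All KO libraries were below all WT libraries, as their labels have it, and the KO mean was 37.1% of the WT mean, so transcripts of the locus were still counted. The difference in log2(value + 1), KO minus WT, was −1.39 (standard error 0.36), with a limma p of 0.86 after Benjamini-Hochberg adjustment and an exact permutation p of 0.1 (two-sided, the smallest that 3 libraries against 3 allow).

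Replicate gh18 stood apart from the other 5 libraries in a way that touches these 7 genes. Across 12453 tested genes with an annotated coding transcript, its log2 value minus the mean of its 5 companions was lower the higher the GC content, with a Spearman's rho of −0.81 (genes are no replicates of each other). The same measure gave a rho of 0.35 for gh03, 0.61 for gh09, 0.55 for gh15, 0.58 for gh06 and 0.17 for gh12, but gh18 is among the companions of each of these, so its trend alone pushes their values up and they are not separate evidence of a trend. In gh18 the median of this deviation was 0.92 over the 10% of genes poorest in GC and −2.30 over the 10% richest in it. The differences of the 7 genes are therefore given with all libraries, without gh18, and after a correction that takes a smooth curve on GC content out of each library.

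None of the 7 genes passed the test between the genotypes. limma called 0 of 7 at an adjusted p under 0.05, against 0 of 13692 tested genes, or 0% (231 genes, or 1.69%, had an unadjusted p under 0.05, among them 0 of the 7). On the recovered reads edgeR called 0 genes (221 at an unadjusted p under 0.05) and DESeq2 called 1 (335 at an unadjusted p under 0.05), while limma-voom with library weights called 0 and had 1641 at an unadjusted p under 0.05, with *Adam10* among them. The gene that DESeq2 called, kgCluster18353, was looked up after its result was seen and is not among the 7. The number of genes at an unadjusted p under 0.05 moved with single libraries, to 133 without gh03, 117 without gh15, 903 without gh06, 133 without gh12 and 588 without gh18, and limma called 0 genes at an adjusted p under 0.05 in each of these fits. Without gh06, too, 1 of the 7 genes, *Adam10*, had an unadjusted p under 0.05. Without gh18 the 7 genes again included 0 at an unadjusted p under 0.05, as they did after the GC correction (199 of 12453 genes). In 0 of the 7 genes did the KO libraries all lie below or all lie above the WT libraries, while 4.58% of tested genes lay wholly lower and 4.83% wholly higher. Over the 7 genes the limma adjusted p lay between 0.86 and 1.00 and the two-sided exact permutation p between 0.2 and 1. The median log2 difference of the 7 genes was −0.06, beside 0.00 over all tested genes. Its sign turned without gh18 (0.13) and with limma-voom (0.11), and after the GC correction it was −0.08. The p-values measure the spread between libraries of 2 pooled animals, and in sorted bulk samples fewer cells of a type and less RNA per cell cannot be told apart.

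**Figure D1:**
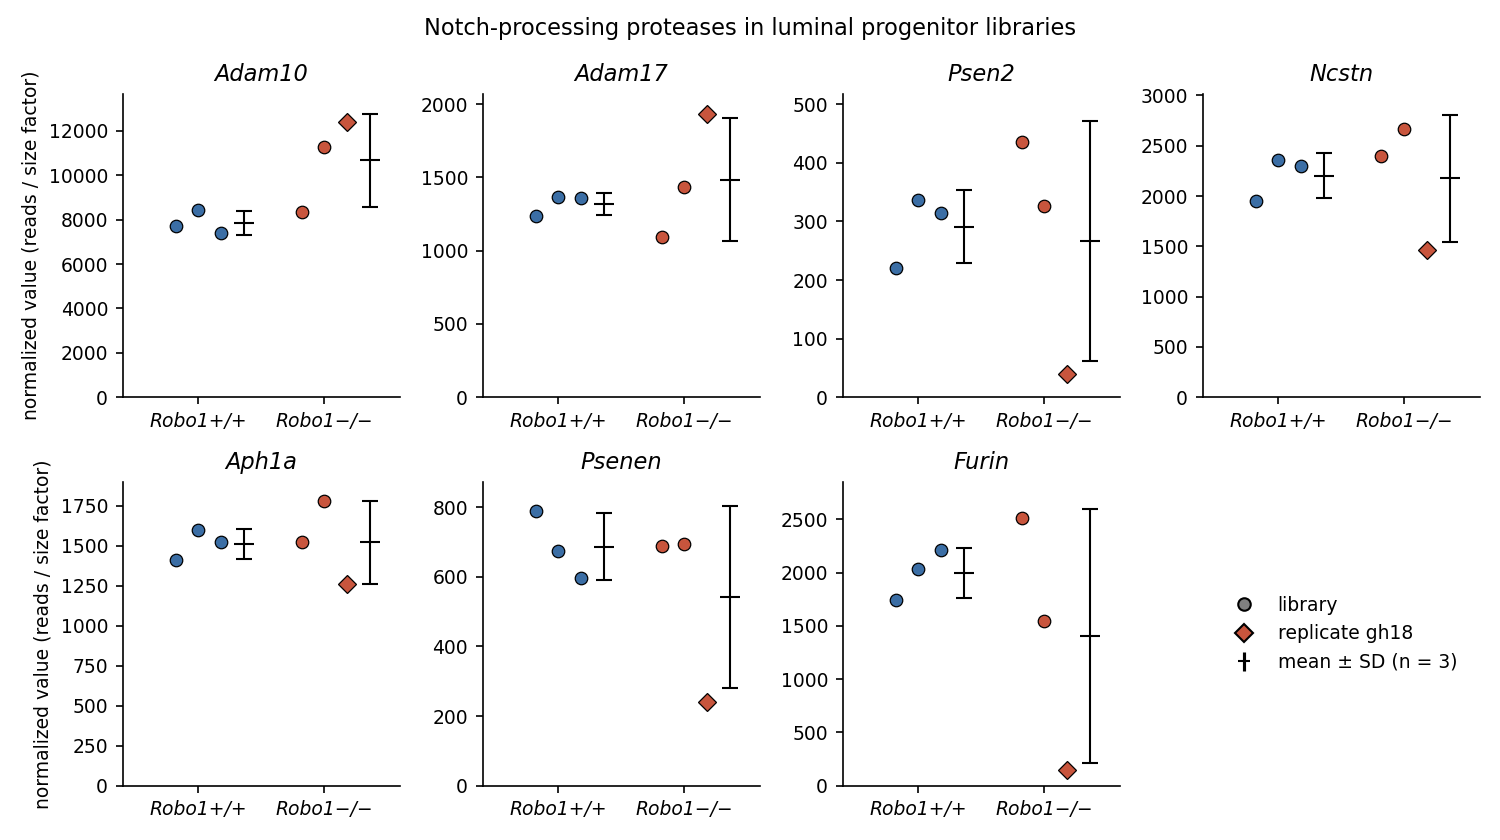
Normalized value (reads divided by the size factor) of each of the 7 genes in every library, with the mean ± SD of 3 libraries per genotype beside the points; each panel has its own linear axis from 0. Replicate gh18 (diamond) is the lowest library for *Psen2*, *Ncstn*, *Aph1a*, *Psenen* and *Furin* and the highest for *Adam10* and *Adam17*.

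*Furin* encodes the convertase that cuts the Notch precursor in the secretory pathway. The gene lies on the minus strand of chromosome 7, at 87533471 to 87550322. WT libraries had normalized values of 1744, 2034 and 2213, against 2515, 1546 and 149 for KO. The KO libraries thus included the highest and the lowest value, the WT libraries lay between gh12 and gh06, and gh18 held 7.33% of the mean of gh06 and gh12. The gh18 value rests on 102 reads, whose exact Poisson 95% interval, which covers counting error only, spans normalized values of 121 to 181. The mean was 1997 ± 236 (SD, n = 3) in WT and 1403 ± 1189 (SD, n = 3) in KO. The log2 difference was −1.25 (95% confidence interval −3.54 to 1.04, limma adjusted p = 0.86). Without gh18 it was −0.01, and after the GC correction −0.55. DESeq2 and edgeR both gave −0.51 and limma-voom −0.34. The spread among the KO libraries was larger than the difference between the genotype means.

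The ADAM proteases carry out the ligand-dependent cut. *Adam10*, the main sheddase of Notch receptors, lies on the plus strand of chromosome 9, at 70526804 to 70628036. Its normalized value was 7715, 8445 and 7413 in the WT libraries, against 8360.2, 11257 and 12412 in KO. Replicates gh12 and gh18 lay above every WT library, but gh06 lay below gh09, so the genotypes overlapped. The mean was 7858 ± 531 (SD, n = 3) in WT and 10676 ± 2087 (SD, n = 3) in KO, or 136% of the WT mean. The log2 difference was 0.42 (standard error 0.22, 95% confidence interval −0.09 to 0.94), with an adjusted p of 0.86 in limma and a two-sided exact permutation p of 0.2. It was 0.31 without gh18 and 0.13 after the GC correction, and across all 16 alternative settings it ranged from 0.13 to 0.59 with adjusted p-values from 0.34 to 1.00.

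*Adam17*, which sheds growth factors and cytokines and can also cut Notch receptors, lies on the minus strand of chromosome 12, at 21329370 to 21379493. Normalized values reached 1234, 1368 and 1360.2 in WT, against 1092, 1434 and 1930.5 in KO. The lowest and the highest library were both KO, and the WT libraries lay close together between gh06 and gh12. The means were 1321 ± 75.3 and 1485 ± 422 (SD, n = 3 each), and the log2 difference was 0.13 (95% confidence interval −0.47 to 0.73, limma adjusted p = 0.89). Its sign turned without gh18 (−0.08) and after the GC correction (−0.08).

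The balance of the 2 sheddases was compared within each library, which cancels the size factor. Per kilobase of transcript, *Adam10* was 6.08, 6.005 and 5.30 times *Adam17* in WT and 7.45, 7.64 and 6.26 times in KO. The KO libraries all had the higher ratio, by 0.29 in mean log2 ratio (two-sided exact permutation p = 0.1, the smallest possible here). After the GC correction the log2 ratios were 2.67, 2.68 and 2.48 in WT and 2.98, 2.99 and 2.52 in KO, so gh18 then lay within the WT range while gh06 and gh12 stayed above it, and the difference was 0.22 (two-sided exact permutation p = 0.3). This ratio is among at least 6 that were computed after the values were seen, and its p is not adjusted for them. For *Adam10* over *Furin* and over *Psen2* the two-sided exact permutation p was 0.4 and 0.7. For *Ncstn* over *Aph1a*, *Ncstn* over *Psenen* and *Aph1a* over *Psenen* it was 0.9, 0.5 and 0.4.

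Among the subunits of gamma-secretase, nicastrin is the one that receives the stub of the substrate. Its gene, *Ncstn*, lies on the minus strand of chromosome 1, at 173996144 to 174012926. It had normalized values of 1949, 2361 and 2296 in WT, against 2399.6, 2666 and 1462 in KO. The KO libraries lay on either side of the WT libraries, with gh06 and gh12 above them and gh18 below. The means were 2202 ± 222 and 2176 ± 632 (SD, n = 3 each), with a log2 difference of −0.06 (95% confidence interval −0.70 to 0.58). It was 0.20 without gh18 and 0.02 after the GC correction.

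*Aph1a*, the scaffold subunit, lies on the plus strand of chromosome 3, at 95697892 to 95702211. The WT libraries gave normalized values of 1412, 1599 and 1522.5, and the KO libraries 1526, 1782 and 1262. Again gh12 was the highest library and gh18 the lowest, with gh06 inside the WT range. The means, 1511 ± 93.8 and 1523 ± 260 (SD, n = 3 each), were closer than either spread, and the log2 difference was −0.00 (95% confidence interval −0.49 to 0.49). It was 0.13 without gh18 and 0.23 after the GC correction. Of the exon bases of *Aph1a*, 15.5% overlap *Car14* on the other strand, and reads there cannot be told apart because the library kit does not mark strand. *Car14* itself had normalized values between 40.9 and 79.9 in the 6 libraries.

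*Psenen*, the small subunit that completes the complex and lets presenilin mature, lies on the minus strand of chromosome 7, at 31346887 to 31348203. In WT its normalized value was 788, 672 and 598, against 689, 694 and 239 in KO. Replicates gh06 and gh12 fell within the WT range and gh18 lay far below it, at 34.6% of their mean. The means were 686 ± 95.7 and 541 ± 261 (SD, n = 3 each), with a log2 difference of −0.49 (95% confidence interval −1.53 to 0.55) that became 0.02 without gh18 and −0.26 after the GC correction.

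*Psen2*, which encodes a catalytic subunit, lies on the minus strand of chromosome 1, at 182157135 to 182193569. WT values were 220.1, 337 and 315 on the normalized scale, against 436, 326 and 39.4 for KO. The highest and the lowest library were again both KO. The value in gh18 rests on 27 reads (exact Poisson 95% interval in normalized values 26.0 to 57.3) and was 10.3% of the mean of gh06 and gh12. The means were 291 ± 62.2 and 267 ± 205 (SD, n = 3 each). The log2 difference of −0.68 (95% confidence interval −2.71 to 1.36) turned to 0.40 without gh18, and after the GC correction it was −0.31. It depended on the method, with −0.12 in DESeq2 and in edgeR and 0.11 in limma-voom.

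**Figure D2:**
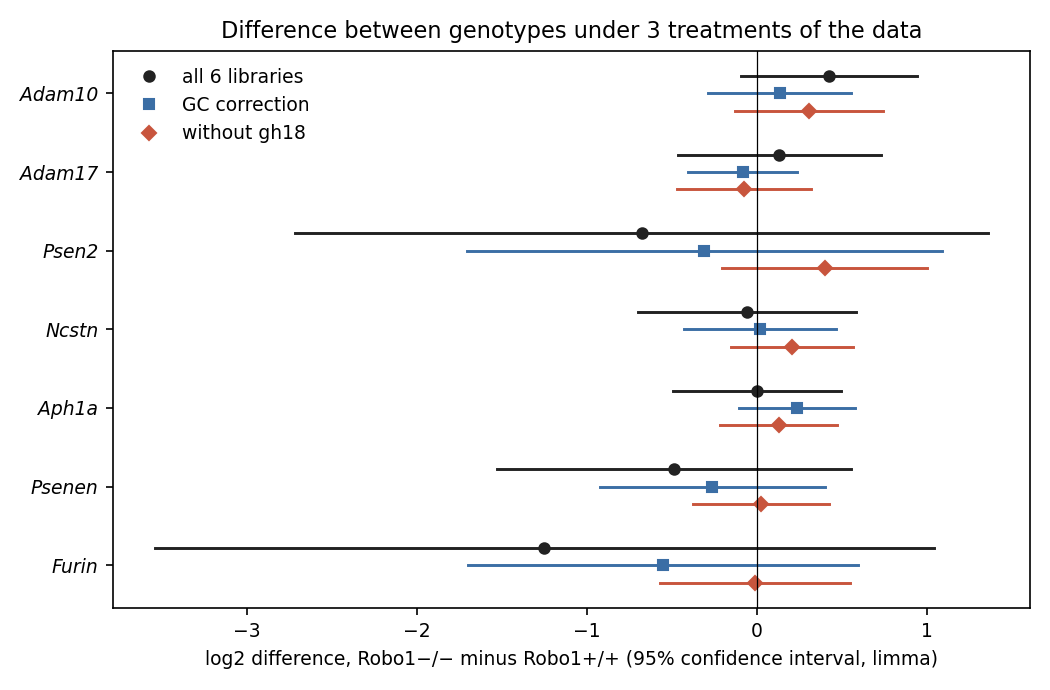
Log2 difference, KO minus WT, of the 7 genes from limma (symbols) with 95% confidence intervals (lines), for all 6 libraries, after the GC correction, and without replicate gh18. All intervals cross 0, and the difference of *Furin* goes from −1.25 with all libraries to −0.01 without gh18.

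Over the 7 genes, gh18 was lower relative to the other libraries the richer the transcript was in GC, with *Aph1a* and *Adam17* out of order. The GC content of the longest coding transcript was 42.1% for *Adam10*, 45.1% for *Adam17*, 51.6% for *Ncstn*, 53.5% for *Psenen*, 53.7% for *Aph1a*, 55.1% for *Psen2* and 58.3% for *Furin*. The log2 deviation of gh18 was 0.54, 0.58, −0.67, −1.51, −0.31, −2.99 and −3.73 in the same order. Over the 7 genes the deviation had a Pearson r of −0.86 and a Spearman's rho of −0.86 with GC content, which is a description of genes measured in the same libraries. GC content did not place every gene on the trend of all genes. Among 1326 genes within 1 percentage point of the GC content of *Psen2* the median deviation was −1.02, and 3.32% of them were lower than *Psen2*. For *Furin* the median of 929 such genes was −1.95, and 6.03% were lower. For *Psenen* it was −0.60 over 1367 genes, with 13.6% lower, while *Aph1a* lay above the median of its 1371 genes (−0.62), with 69.4% lower. *Ncstn* lay below the median of its 1300 genes (−0.19), with 23.8% lower. *Adam17* lay at the median of its 1196 genes (0.59), with 48.2% lower, and *Adam10* below the median of its 801 (0.78), with 24.3% lower. What set gh18 apart was not tested.

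**Figure D3:**
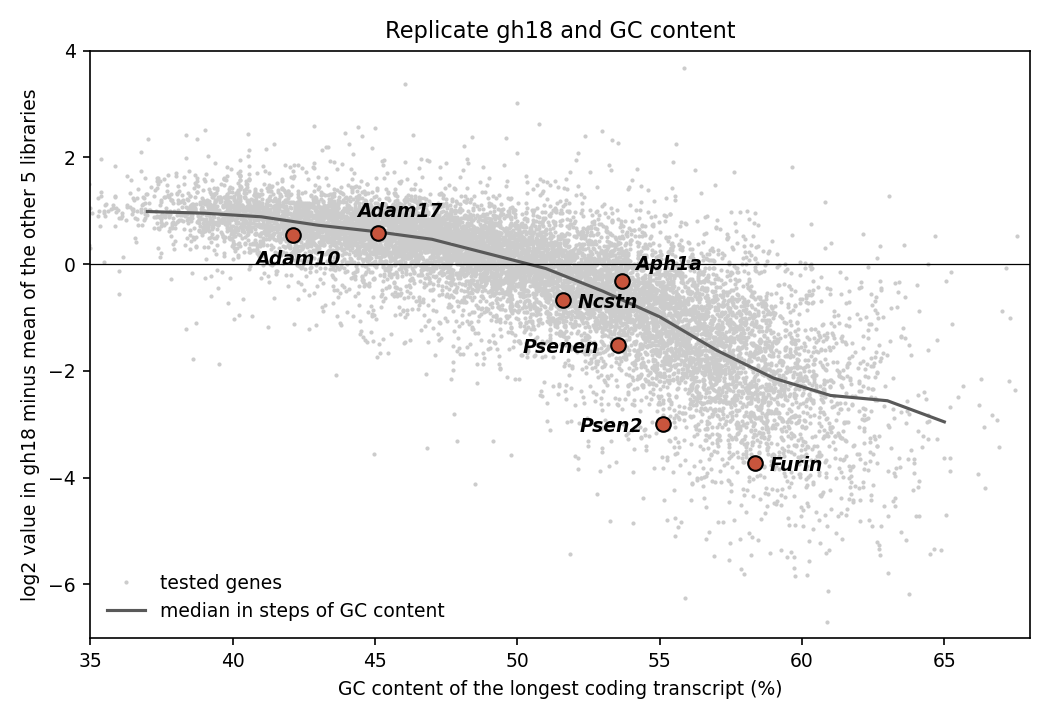
Log2 value in replicate gh18 minus the mean of the other 5 libraries (vertical axis) against the GC content of the longest coding transcript in percent (horizontal axis), for 12453 tested genes (grey, 22 of them outside the axes), with the median in steps of 2 percentage points (line) and the 7 genes (red). *Psen2* (−2.99) and *Furin* (−3.73) lie below the line and *Aph1a* (−0.31) above it.

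The difference in composition runs along the transcripts. Of windows of 100 bases taken along each transcript, 51.4% in *Furin* and 29.0% in *Psen2* had a GC content of at least 60%, against 4.44% in *Adam10* and 6.64% in *Adam17*. These shares do not follow the deviation of gh18 in every gene, since *Aph1a* had 27.1%, *Psenen* 9.09% and *Ncstn* 8.90%. It is also seen in the codons of the catalytic sites, which are shown here as the part of each enzyme that makes the cut. The sequences are from GENCODE release M1 on NCBI37/mm9, 5′ to 3′ on the coding strand. Capitals mark the 11 codons of the zinc-binding motif in the ADAMs and the 7 codons around the catalytic serine in furin. In *Psen2* they mark 4 codons, of which the last is that of a catalytic aspartate. Each has 12 coding bases on either side.
Adam10: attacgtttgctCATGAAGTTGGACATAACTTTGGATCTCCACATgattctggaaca
Adam17: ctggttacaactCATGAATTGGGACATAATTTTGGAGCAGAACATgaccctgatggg
Psen2: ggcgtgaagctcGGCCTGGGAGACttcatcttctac
Furin: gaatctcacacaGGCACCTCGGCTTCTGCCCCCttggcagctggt
The GC content of these stretches was 38.6% in *Adam10*, 43.9% in *Adam17*, 58.3% in *Psen2* and 62.2% in *Furin*. The *Adam10* site spans exons 9 and 10 of 16 (chr9:70602091-70609404, with the intron between them). The *Adam17* site is in exon 12 of 20 (chr12:21342581-21342637). The *Psen2* site is in exon 10 of 11 (chr1:182159055-182159090) and the *Furin* site in exon 10 of 16 (chr7:87537796-87537840).

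Levels were compared between genes per kilobase of the longest coding transcript. In WT libraries *Adam10* had the highest level, 1711 ± 116 (SD, n = 3) per kilobase, which 96.2% of 12453 tested genes with a length did not reach. *Psenen* followed with 1058 ± 148 and *Ncstn* with 730.2 ± 73.5. *Aph1a* had 528 ± 32.8, *Furin* 461 ± 54.6, *Adam17* 296 ± 16.8 and *Psen2* 144 ± 30.8. *Aph1a* and *Furin* overlapped in their WT values (493 to 558 and 403 to 511 per kilobase), and no other neighbours in this order did. Of the 7 genes *Adam10* was thus the most abundant transcript in these cells, and *Psen2* the least. In KO libraries the same order held for the means, from 2324 ± 454 per kilobase for *Adam10* to 132 ± 101 for *Psen2*, except that *Adam17* (332 ± 94.3) and *Furin* (324 ± 275) changed places. That exchange rests on gh18 (34.4 per kilobase for *Furin* and 432 for *Adam17*), since *Furin* was above *Adam17* in gh06 (580 and 244) and in gh12 (357 and 321). With the mean length of the coding transcripts in place of the longest, *Adam10* had 3385 per kilobase in WT, far above the level just given, and *Furin* (735 per kilobase) moved ahead of *Aph1a* (677) in WT.

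Some pairs of the group varied together across the libraries and others did not or went in opposite directions. *Adam17* and *Furin* had a Pearson r of −0.90 and a Spearman's rho of −0.83 over the 6 libraries on the log2 scale (r = −0.13 after the GC correction), and *Adam10* and *Furin* an r of −0.78 and a rho of −0.71 (0.41). *Psen2* and *Ncstn* had an r of 0.94 and a rho of 0.83 (0.91). *Psen2* and *Furin* had an r of 0.98 and a rho of 0.71 (0.97), with gh18 still the lowest library of both genes after the correction. *Ncstn* and *Aph1a* had an r of 0.95 and a rho of 0.94, but an r of −0.36 after the correction. *Adam10* and *Adam17* had an r of 0.76 and a rho of 0.77, and an r of 0.06 after the correction. *Psenen* and *Furin* had an r of 0.95 but a rho of 0.09, and *Psen2* and *Psenen* an r of 0.92 but a rho of 0.26. *Aph1a* and *Furin* had an r of 0.70 and a rho of 0.26, and their r was −0.85 after the correction. These pairs share libraries, depth and the composition trend of gh18. In the 5 libraries other than gh18 each of the 7 genes stayed within a narrow span, from a ratio of highest to lowest of 1.26 in *Aph1a* to 1.98 in *Psen2*.

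The genes most like each member over the 6 libraries were sought among the 11486 tested genes that averaged 50 or more in normalized value. For *Adam10* they were *Rsrc1* (Pearson r = 0.999, Spearman's rho = 0.94, n = 6 libraries) and *Gtf2e2* (r = 0.997, rho = 0.94). For *Adam17* they were *Nsdhl* (r = 0.995, rho = 0.94) and *Golga7* (r = 0.994, rho = 0.94), and for *Furin* they were *Cabin1* (r = 1.00, rho = 1) and *Rnf208* (r = 1.00, rho = 1). With so many genes and 6 libraries, values this high are reached for every member. *Psen2* was nearest to *Slc37a1* and *Numa1* (both r = 0.999, rho = 1), *Ncstn* to *Ppp6r2* (r = 0.999, rho = 1) and *Gss* (r = 0.998, rho = 1), and *Aph1a* to *Folr1* (r = 1.00, rho = 1) and *Aurka* (r = 0.997, rho = 0.94). *Psenen* was nearest to *Timm10* (r = 0.999, rho = 1) and to kgCluster26222, which bears only a clone identifier here (r = 0.998, rho = 0.94). Of these 14 genes, 1 was still among the nearest 2 of its member after the GC correction and 3 were without gh18. The cluster kgCluster26222 has no GC content here and could not be among them after the correction.

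Other genes of the pathway were taken from hand-written lists. Among the other gamma-secretase subunits and partners, 0 of 4 tested genes had an unadjusted p under 0.05, and the median log2 difference was 0.14 beside 0.00 over all tested genes. The smallest p in that list belonged to *Aph1c*, an APH1 paralog, with normalized values of 64.9, 170.1 and 128 in WT and 177, 175 and 121 in KO libraries, which overlapped. *Aph1b* and *Gsap* were not analysed here. Among the other ADAM proteases, 1 of 6 tested genes was lower at an unadjusted p under 0.05 and 0 were higher (1.69% over all tested genes, both directions), with a median log2 difference of −0.73 that was −0.08 without gh18. That gene was *Adam8*, a metalloprotease best known from leukocytes, with normalized values of 388, 237 and 480.3 in WT and 258, 144 and 102 in KO libraries. Its log2 difference was −1.17 (standard error 0.43, limma adjusted p = 0.86), and it was −0.87 without gh18 (unadjusted p = 0.055) and −0.83 after the GC correction.

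ADAM10 and ADAM17 depend on tetraspanins and iRhoms for their transport and are held in check by tissue inhibitors of metalloproteases. Among 12 tested genes of this list 1 was lower at an unadjusted p under 0.05 and 0 were higher (1.69% of all tested genes in both directions), and the median log2 difference was −0.32 (−0.12 without gh18). The lower gene was *Timp1*, a secreted inhibitor, with normalized values of 374, 279.8 and 308 in WT and 201.4, 199 and 155 in KO libraries. The genotypes did not overlap for *Timp1* (4.58% of all tested genes lay wholly lower), and its log2 difference was −0.79 (standard error 0.26, limma adjusted p = 0.86, two-sided exact permutation p = 0.1), with −0.67 without gh18 and −0.63 after the GC correction. *Timp3*, the inhibitor best known for ADAM17, had a log2 difference of 0.25 (0.35 without gh18, 0.08 after the GC correction) and overlapped. The iRhom genes *Rhbdf1* and *Rhbdf2* had normalized values of 143 and 162 in gh18 but between 1171 and 1965 and between 1019.6 and 1541 in the other 5 libraries. Their GC content was 60.4% and 58.7%. The log2 deviation of gh18 from the mean of those 5 libraries was −3.41 and −2.97. After the GC correction it was −1.01 and −0.97. *Timp3* and the iRhoms were named for their role after their values were seen.

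Among the other proprotein convertases 0 of 5 tested genes had an unadjusted p under 0.05, with a median log2 difference of −0.41 that was 0.03 without gh18. The smallest p in the list was that of *Pcsk4* (39.4, 54.9 and 47.8 in WT, 64.5, 32.1 and 2.92 in KO), whose last value, that of gh18, is under the 3 reads taken as the smallest number detected. Of the beta-secretases, *Bace1* had a log2 difference of 0.21 (0.31 without gh18, 0.18 after the GC correction) and the smaller p, and 0 of 2 had an unadjusted p under 0.05.

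The substrates and outputs of the cuts gave the following values. Among 7 tested Notch receptors and ligands 0 had an unadjusted p under 0.05. The median log2 difference was −0.56, and it was 0.07 without gh18 and −0.03 after the GC correction. The receptor with the smallest p was *Notch3*, with normalized values of 3517, 3757 and 3804 in WT and 3556, 3191 and 575 in KO. Its GC content was 59.6%, and like *Furin* it was low in gh18 and overlapped between the genotypes elsewhere.

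Of 6 tested Notch targets, none passed at the adjusted threshold (0 of 6), while without adjustment 2 were higher and 1 was lower at p under 0.05, beside 1.69% of all tested genes in both directions together. *Hey1*, a transcriptional repressor induced by Notch, had normalized values of 743, 621 and 395 in WT and 1587, 1666 and 708 in KO libraries. Replicate gh18 lay within the WT range and gh06 and gh12 were above it, with a log2 difference of 1.12 (standard error 0.41, limma adjusted p = 0.86) and of 1.52 without gh18 and 1.11 after the GC correction. Its relative *Hey2* had 17.8, 28.2 and 24.4 against 56.4, 47.6 and 54.0, with every KO library above every WT library (as in 4.83% of all tested genes) and a log2 difference of 1.15 (1.13 without gh18, 0.96 after the GC correction). *Heyl* had 363, 212 and 319.9 against 98.98, 48.5 and 175, with every KO library below (as in 4.58%), and a log2 difference of −1.61 (−2.05 without gh18). After the GC correction the difference of *Heyl* was −1.23 with an unadjusted p of 0.12, and gh18 lay within the WT range. Without gh18 the unadjusted limma p was 0.0010 for *Hey1*, 0.015 for *Hey2* and 0.0012 for *Heyl*. For *Hey1* and *Hey2* it was 0.022 and 0.025 after the GC correction. Without gh18, 588 of 14010 tested genes had an unadjusted p under 0.05, and after the GC correction 199 of 12453. Neither fit had a gene at an adjusted p under 0.05.

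Among 10 tested other substrates of gamma-secretase 0 had an unadjusted p under 0.05. The median log2 difference was −0.02, but 0.03 without gh18 and 0.02 after the GC correction. The smallest p was that of *Aplp1*, with 99.2, 83.9 and 102 in WT and 82.9, 54.1 and 19.0 in KO libraries, which did not overlap (as in 4.58% of all tested genes), and a log2 difference of −1.08 (−0.50 without gh18, and −0.20 after the GC correction, where gh18 was the highest library). Among 9 tested growth factors and cytokines shed by ADAMs 0 had an unadjusted p under 0.05, and the median log2 difference was 0.22 (0.00 without gh18). Without gh18, 1 of the 9, *Epgn*, was lower at an unadjusted p under 0.05 (log2 difference −0.92). In that fit 588 of 14010 tested genes, both directions together, had an unadjusted p under 0.05. With all libraries *Hbegf*, a ligand of the EGF receptor, had the smallest p, with a log2 difference of 0.40 (0.21 without gh18, 0.37 after the GC correction).

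The sorted cells were checked against markers of luminal progenitors and of the other cells such a sort could hold. All 7 luminal progenitor markers were tested. Their summed normalized values were 28737, 48471 and 40619.8 in WT and 52775, 64924 and 43347 in KO libraries. *Ltf* had the highest mean over the 6 libraries, but *Csn3* was above it in gh03 (7755 and 5244) and in gh18 (16669.5 and 10099). The log2 difference was above 0 in 5 of the 7 markers and below 0 in 2, *Cd14* (−0.57) and *Kit* (−0.13). At an unadjusted p under 0.05 (1.69% of all tested genes), 1 of them was higher, *Csn3*, with a log2 difference of 0.85 (0.79 without gh18), but after the GC correction it was 0.45 with an unadjusted p of 0.14. The 5 luminal markers were headed in the same sense by *Krt8*, with summed values of 108342, 123447 and 122783 against 139644, 135294 and 58358, lowest in gh18, where the GC-rich proteases were also low. Of the 5, 4 had a log2 difference below 0 and the median was −0.28 (0.13 without gh18, 0.12 after the GC correction). Their GC content was 56.9% for *Krt8*, 56.4% for *Krt18*, 57.6% for *Krt19*, 52.7% for *Epcam* and 43.0% for *Cd24a*. *Cd24a* was the luminal marker with an unadjusted p under 0.05 (1 of 5, beside 1.69%), at a log2 difference of 0.67 (0.70 without gh18), which after the GC correction was 0.40 with an unadjusted p of 0.17. Among 6 hormone-sensing luminal markers, headed by *Prlr*, the summed values were 32076, 45546 and 34052 against 53576, 45377 and 47935. *Pgr* was higher at an unadjusted p under 0.05 (1 of 6, beside 1.69%), with a log2 difference of 0.76 (0.87 without gh18, 1.23 after the GC correction).

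Markers of other cell types had smaller summed values, which are not per length. The gene that heads a list is again that of the highest mean over the 6 libraries, not the highest in each library. The 8 basal markers, headed by *Oxtr*, summed to 1883, 573 and 1036 in WT and 1335, 773 and 939.7 in KO libraries. Of these markers 0 of 8 had an unadjusted p under 0.05. The place of *Oxtr* rests on gh18 (512), since in WT its mean (255) was below those of *Acta2* (285) and *Krt14* (263). The 6 fibroblast markers, headed by *Dcn*, summed to 747, 832 and 704 against 1039, 307 and 735. The leukocyte markers, headed by *Lyz2*, summed to between 5.75 and 14.0, with *Ptprc* at 0 in 4 libraries, and 0 of 5 were tested. The endothelial markers, headed by *Pecam1*, summed to between 24.8 and 90.7, and 3 of 4 of them were too low to be tested. The erythroid markers, headed by *Hba-a2*, summed to between 41.3 and 181, and of the adipocyte markers *Fabp4* had values between 1.46 and 3.92, while *Adipoq*, *Plin1* and *Cidec* were not analysed here. The part of cell composition in the values of the 7 proteases was not tested.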

How the data were processed

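Poly(A)+ RNA of sorted luminal progenitors was sequenced by the authors from 3 *Robo1+/+* and 3 *Robo1−/−* pools of 2 animals, and genotypes were taken from the labels. The deposited signal is a read count per known-gene cluster that the authors divided by 1 size factor per library. By the study's methods, reads were trimmed to 75×75 bases (read pairs), cleared of repeats with bowtie2, aligned by TopHat to build NCBI37/mm9, and DESeq2 gave the normalization. The counting tool, its use of strand and its rules for read pairs and for reads with several positions are not given in the sources used here. All values were whole reads (within 0.1 of a read) once divided by the value of 1 read, and fewer than 3 reads counted as not detected. Intervals and floors cover counting error only, with each read taken as counted independently.

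The plan named limma for normalized values and edgeR for raw counts, and since the values are normalized, limma (version 3.58.1, R 4.3.3) was run, with its trended empirical Bayes step, on log2(value + 1) for the 13692 of 18537 clusters, all 7 proteases among them, that the filterByExpr function of edgeR (version 4.0.16) kept. Adjustment was by Benjamini-Hochberg over these clusters. Fold changes of low genes are understated on this scale. Alternatives were DESeq2 (version 1.42.0), edgeR with TMM and limma-voom with library weights on recovered reads, TMM and upper-quartile scaling, pseudocounts of 0.5 and 5, all genes with at least 1 read, at least 10 reads in every library, an adjusted p of 0.1, each library left out, a lowess GC correction (span 0.3) and the mean transcript length. The functions were tested on simulated data.

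Coordinates, lengths, GC content and sequences come from GENCODE release M1 on NCBI build 37, in which 12453 tested genes (91.0%) had a coding transcript. No 75-base stretch of the longest coding transcript of the 7 genes is shared with the coding transcripts of other genes, and exons of *Adam17*, *Ncstn* and *Aph1a* overlap *Iah1* (1.36% of bases), *Copa* (4.91%) and *Car14*. The longest annotated coding transcript of *Ncstn* has a short reading frame and was used for length and GC content only.

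Members and lists were chosen with earlier results of these data known. Genes named were the 7 members, *Robo1*, every gene of each list with an unadjusted p under 0.05 or else the smallest p, the 2 nearest genes of each member, and the most abundant gene of each cell type list. Outside this rule, other genes such as *Timp3*, *Rhbdf1*, *Rhbdf2*, *Epgn*, *Ptprc*, *Cd14*, *Kit*, *Acta2*, *Krt14* and *Car14* were named with their values in view. The most abundant gene is that of the highest mean normalized value over the 6 libraries. Tests of lists were left out. An item of the planned list of other gamma-secretase subunits and partners is not reported here, and the counts of that list are without it.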

Additional observations from a re-analysis of the deposited data

How the results depend on the processing

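Of 112 log2 differences of the 7 proteases under 16 alternatives, 95 kept their direction, 17 did not, and 0 had an adjusted p under 0.05 (lowest 0.34). *Adam10* and *Furin* kept theirs throughout. With the GC correction *Adam17* turned to −0.084, *Ncstn* to 0.017 and *Aph1a* to 0.23. With limma-voom and library weights *Psen2* turned to 0.11, *Ncstn* to 0.17, *Aph1a* to 0.15 and *Psenen* to 0.074. *Aph1a*, at −0.00 in limma, was 0.013 with DESeq2, 0.0043 with edgeR and 0.035 with upper-quartile scaling. With each library left out the ranges were 0.31 to 0.59 for *Adam10*, −0.076 to 0.33 for *Adam17*, −1.32 to 0.40 for *Psen2*, −0.23 to 0.20 for *Ncstn*, −0.12 to 0.13 for *Aph1a*, −0.74 to 0.022 for *Psenen* and −2.05 to −0.011 for *Furin*. With a library left out, the turns of *Psen2*, *Psenen*, *Ncstn* and *Adam17* came without gh18. *Aph1a* turned without gh18 (0.13), without gh09 (0.041) and without gh15 (0.0055). It made 8 of the 17 turns, from a main difference of −0.00081, which is next to 0. *Adam10* had an unadjusted p under 0.05 with limma-voom and without gh06.

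The count of genes at an unadjusted p under 0.05 (231) was 1641 with limma-voom, 415 among all genes with at least 1 read and between 117 (without gh15) and 903 (without gh06) with a library left out (588 without gh18). The count at an adjusted p under 0.05 was 1 with DESeq2 and 0 with the others. At the mean transcript length the *Robo1+/+* level per kilobase was 3385 for *Adam10*, 407 for *Adam17*, 188 for *Psen2*, 677 for *Aph1a* and 735 for *Furin*. Of the 14 nearest genes, 1 was shared after the GC correction, for which kgCluster26222 has no GC content, and 3 without gh18. The cause of these changes was not tested. No paired analysis was run, because the sample names do not state which libraries, if any, form pairs. An effect of litter or preparation was not tested. Depth limits *Psen2* most, with 27 reads in gh18. Transcript values say nothing of protease activity.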
